A study of Mus musculus with 412 samples.

Results

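Ntm, Crhr2, Dcn and Abi3bp were described in single neurons of the mouse colon. These 4 genes, called the members below, were found by symbol among the 45513 Ensembl genes of the deposited table, and all 4 belonged to the 34769 genes with a value over 0 somewhere. They were named beforehand, from earlier results of the same neurons, as marks of a peptidergic population of the pelvic innervation, so their levels in lumbosacral neurons are a description and carry no test. The colon wall of C57BL/6J mice was injected with Fast Blue, a fluorescent tracer that nerve endings take up and carry back to the cell body. Traced neurons were then picked by hand from dissociated dorsal root ganglia (DRG) and sequenced 1 by 1 with Smart-seq2, which copies full-length polyadenylated RNA without molecular identifiers. Thoracolumbar (TL) ganglia, whose afferents run in the lumbar splanchnic nerve, and lumbosacral (LS) ganglia, whose afferents run in the pelvic nerve, were cultured apart. The mice were healthy, and their age and number are not given in the sources used here.

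The table held 167 TL and 158 LS neurons. Before its clustering the study removed some of them because of contaminating satellite glia, whereas all are used here. Neither the mouse nor the culture of a neuron is given, so each segment counts as 1 sample, neurons are not replicates, and segment and culture cannot be told apart. Library plates 2 to 6 held both segments and are given as strata, and plate 1 held 5 TL neurons. Recovered reads ran from 416007 to 12058968 per neuron with a median of 2867071, and the median was 3202776 in LS and 2709639 in TL neurons. Levels are given as TPM, which here means the deposited value taken off its log2 scale and rescaled to a sum of 1000000 in each neuron, so that it is per length of gene. A neuron is said to carry a gene at 10 TPM or more. Bracketed ranges after a share are 95% intervals by the exact Clopper-Pearson method and allow for counting error alone.

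Neurotrimin, the product of Ntm, is a cell adhesion molecule of the IgLON family, anchored to the outer membrane of neurons, where it takes part in neurite outgrowth and contact between axons. Crhr2 encodes a G protein-coupled receptor for the urocortins and, with lower affinity, for corticotropin-releasing factor, the peptides of the stress response that also act on the gut. Decorin, the product of Dcn, is a secreted small leucine-rich proteoglycan that binds collagen fibrils and growth factors, and fibroblasts are its best known source. Abi3bp encodes another secreted matrix protein. Gfra3, the receptor subunit for artemin, marks a large share of peptidergic DRG neurons, which release calcitonin gene-related peptide and substance P and respond to heat and irritants through Trpv1.

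In GRCm38, Ntm (ENSMUSG00000059974) lies on the minus strand at chr9:28994750-29963141, and Crhr2 (ENSMUSG00000003476) on the minus strand at chr6:55090049-55133016. Dcn (ENSMUSG00000019929) lies on the plus strand at chr10:97479609-97518143 and Abi3bp (ENSMUSG00000035258) on the plus strand at chr16:56477878-56690135. The values count reads over all exons of a gene and do not tell transcripts apart. The long Ntm locus spans 2 other annotated loci, the antisense Gm15520 and the sense intronic Gm15521, with which it shares 0 exonic bases. Gm15520 was at 10 TPM or more in 6 of the 325 neurons and Gm15521 in 0, while the other 3 genes overlapped no annotated locus.

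RefSeq promoter windows on GRCm38.p6 were at hand for Ntm and Crhr2, and they are shown because these 2 genes separated the segments most widely in the share of Gfra3 neurons that carried them. Each line gives the 250 bases before an annotated start, 5′ to 3′ on the strand of the gene. The first Ntm window is chr9:29413453-29413702, the second is chr9:29412686-29412935, and the Crhr2 window is chr6:55133017-55133266. Capitals mark every match, on either strand, to the TATA box TATAAA, the GC box GGGCGG or the oestrogen receptor half-site AGGTCA.
Ntm, first start: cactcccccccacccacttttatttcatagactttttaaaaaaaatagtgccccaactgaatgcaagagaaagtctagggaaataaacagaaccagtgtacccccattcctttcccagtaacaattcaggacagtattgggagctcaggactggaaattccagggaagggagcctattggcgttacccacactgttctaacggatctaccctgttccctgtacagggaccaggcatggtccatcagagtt
Ntm, second start: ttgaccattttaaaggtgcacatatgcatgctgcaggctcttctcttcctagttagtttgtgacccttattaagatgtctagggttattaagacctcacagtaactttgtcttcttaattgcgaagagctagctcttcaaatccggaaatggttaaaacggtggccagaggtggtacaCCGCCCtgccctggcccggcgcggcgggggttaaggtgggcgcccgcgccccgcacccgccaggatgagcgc
Crhr2: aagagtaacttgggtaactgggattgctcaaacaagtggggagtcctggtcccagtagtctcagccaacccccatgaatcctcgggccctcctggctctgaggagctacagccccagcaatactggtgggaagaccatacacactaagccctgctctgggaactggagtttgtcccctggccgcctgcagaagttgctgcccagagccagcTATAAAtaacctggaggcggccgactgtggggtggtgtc
The Crhr2 window held a TATA box whose first base was 39 bases before the start, a motif found in 12.4% of 32851 such windows. The second Ntm window held 1 GC box on the opposite strand, with its first base in the window 72 bases before the start, and 32.7% of windows held 1 or more. No window of the 3 held an AGGTCA, which 14.0% of windows held. These matches describe letters only.

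Across all neurons, Ntm was carried by 48 of 158 LS neurons and by 0 of 167 TL neurons, which by 3 counts of the total allows a TL share of up to 1.796% and by the exact interval 2.18%. Crhr2 was carried by 74 LS and 22 TL neurons, Dcn by 74 LS and 67 TL neurons, and Abi3bp by 20 LS and 2 TL neurons. The mean level was higher in LS for each gene, by a ratio of 26.6 for Ntm, 7.71 for Abi3bp, 5.77 for Crhr2 and 4.62 for Dcn. As background, 2.58% of the 7752 genes with a mean of at least 10 TPM in a segment had a mean at least 2 times higher in LS than in TL. Only Crhr2 and Dcn passed that filter of the mean, and since the genes were chosen on this contrast nothing is read from the count. Both the share of neurons that carried a gene and the level in its carriers are given below.

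Gfra3 left a wide gap around the threshold in LS but not in TL. It was at 10 TPM or more in 83 LS and 100 TL neurons, and it was listed at 0 in 71 LS and 54 TL neurons. The highest LS neuron below the threshold had 4.31 TPM and the lowest above it 36.4 TPM. In TL, the nearest neurons had 9.63 and 10.98 TPM, and 12 TL neurons lay between 10 and 100 TPM. The 3 LS neurons just below the threshold carried 1, 0 and 1 of the 4 genes and the 3 just above carried 0, 2 and 2, and the 6 TL neurons nearest to it carried none. Among neurons with Gfra3 the median Gfra3 level was 1334 TPM in LS and 1133 TPM in TL.

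In LS Gfra3 neurons Ntm ranged from 0 to 65.3 TPM with a median of 8.46 TPM, and in TL Gfra3 neurons from 0 to 4.19 TPM with a median of 0. In the comparison of Gfra3 neurons 2.01% of 7700 genes had a mean at least 2 times higher in LS, and Ntm, Crhr2 and Dcn, the members past the filter of the mean, were among them by the way they were chosen. Ntm was carried by 41 of 83 LS Gfra3 neurons, or 49.4% (38.2% to 60.6%), against 0 of 100 TL Gfra3 neurons, which by 3 counts allows up to 3% and by the exact interval 3.62%. The LS carriers sat well above the threshold, with a median of 30.4 TPM and 33 of them at 20 TPM or more. The call rested on at least 39 reads in each carrier. TL Gfra3 neurons had up to 72 reads on the gene, so the read counts overlapped although the levels of carriers did not. Summed over neurons, 13849 Ntm reads came from LS Gfra3 neurons and 370 from TL Gfra3 neurons, or 49.1 and 1.20 CPM. Levels of LS and TL Gfra3 neurons overlapped only below 4.19 TPM, where 62 of the 100 TL Gfra3 neurons and 22 of the 83 LS Gfra3 neurons were listed at 0.

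Crhr2 ranged from 0 to 140.8 TPM in LS Gfra3 neurons with a median of 32.6 TPM, and from 0 to 67.1 TPM with a median of 2.88 TPM in TL Gfra3 neurons. It was carried by 59 LS Gfra3 neurons (71.1%, 60.1% to 80.5%), while in TL it was carried by 21 Gfra3 neurons (21%, 13.5% to 30.3%). At 50 TPM or more the counts were 29 and 1. Carriers had a median of 49.7 TPM in LS and 14.4 TPM in TL, so the segments differed both in how many neurons carried the receptor and in how much of it they held. The ranges of the segments overlapped up to 67.1 TPM.

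Dcn reached the highest levels. It ranged from 0 to 1866 TPM in LS Gfra3 neurons with a median of 164.0 TPM, and from 0 to 1822 TPM with a median of 21.9 TPM in TL Gfra3 neurons. The share of carriers was alike in both segments, at 55 of 83 in LS (66.3%, 55.1% to 76.3%) and 58 of 100 in TL (58%, 47.7% to 67.8%), with intervals that overlapped. The segments differed in level instead. Carriers had a median of 512 TPM in LS and 64.4 TPM in TL, and 500 TPM or more was reached by 28 LS and 4 TL Gfra3 neurons.

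Abi3bp was the lowest of the 4. It ranged from 0 to 76.8 TPM in LS Gfra3 neurons with a median of 0.88 TPM, and from 0 to 12.05 TPM with a median of 0 in TL Gfra3 neurons. It was carried by 18 LS Gfra3 neurons (21.7%, 13.4% to 32.1%) and by 1 TL Gfra3 neuron. At this level a threshold of 10 TPM leaves out many neurons with reads, since 31 LS Gfra3 neurons held Abi3bp above 0 and below 10 TPM.

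**Figure D1:**
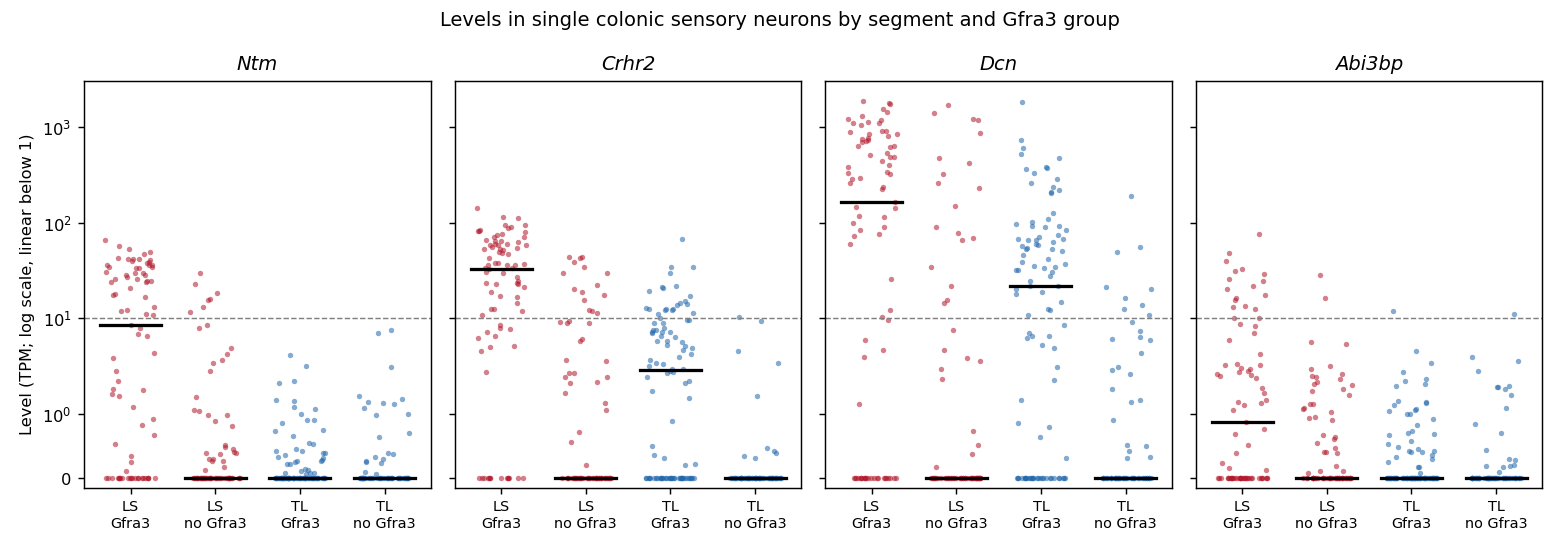
Level of each gene in every neuron, in TPM on a log axis that is linear below 1, for LS neurons (red) and TL neurons (blue) with and without Gfra3. Black bars are medians and the dashed line is 10 TPM, and in LS Gfra3 neurons the medians fall from Dcn (164.0) through Crhr2 (32.6) and Ntm (8.46) to Abi3bp (0.88).

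The genes were also counted in neurons without Gfra3. In the 75 LS neurons without Gfra3, Ntm was carried by 7, Crhr2 by 15, Dcn by 19 and Abi3bp by 2. In the 67 TL neurons without Gfra3 the counts were 0, 1, 9 and 1. The mean of LS Gfra3 neurons exceeded that of LS neurons without Gfra3 in 5 of 5 plates for Crhr2 and Dcn and in 4 of 5 for Ntm and Abi3bp. In TL neurons the same held in 5 of 5 plates for Crhr2 and Dcn and in 1 of 5 for Ntm and Abi3bp, whose TL means were below 1 TPM in both groups.

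Library plates differed in how many LS Gfra3 neurons carried the genes. For Ntm the carriers numbered 6 of 9 (plate 2), 1 of 12 (plate 3), 8 of 18 (plate 4), 11 of 23 (plate 5) and 15 of 21 (plate 6). Plate 3 was also the lowest plate for Dcn, with 4 of 12, while Crhr2 was carried there by 7 of 12. The LS share exceeded the TL share in each of plates 2 to 6 for Ntm, Crhr2 and Abi3bp, and in 3 of 5 plates for Dcn. That order of shares in all 5 plates was met by 6.49% of 7700 genes. The mean Dcn level was nevertheless higher in LS in 5 of 5 plates, by a ratio of 2.20 to 6.96.

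**Figure D2:**
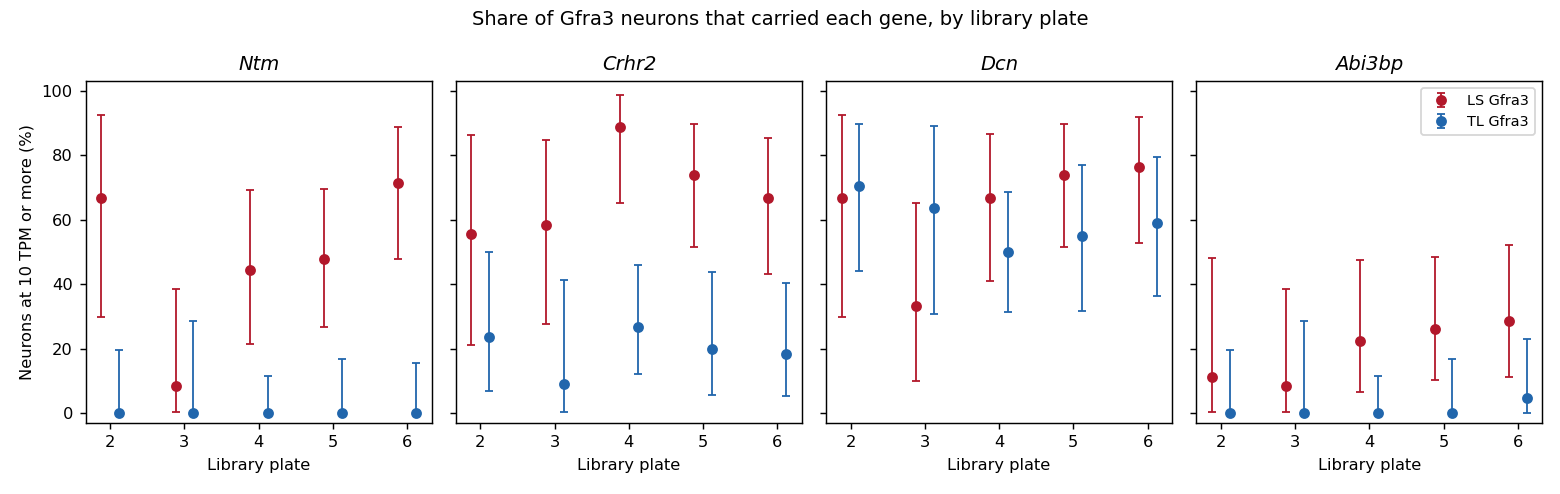
Share of Gfra3 neurons at 10 TPM or more, in percent, for each gene and library plate in LS (red) and TL (blue), with Clopper-Pearson 95% intervals. The Ntm share was 0 in TL in each plate and ran from 8.33% in plate 3 to 71.4% in plate 6 in LS, whereas the Dcn intervals of the segments overlapped in each plate.

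The genes were carried together in LS Gfra3 neurons. Of the 83 neurons, 54 (65.1%, 53.8% to 75.2%) carried 2 or more, 39 carried 3 or 4, and 16 (19.3%, 11.4% to 29.4%) carried all 4. Of 100 TL Gfra3 neurons, 14 (14%, 7.87% to 22.4%) carried 2, in each case Dcn with Crhr2 or, in 1 neuron, with Abi3bp, and 0 carried 3. The TL share depended on the threshold and scale, at 3% with 20 TPM, 31% with 5 TPM, 29.6% with CPM of recovered reads and 33.3% after thinning to 500000 reads. At the other end 19 LS and 34 TL Gfra3 neurons carried none. By plate, 2 or more genes were carried by 33.3% of LS Gfra3 neurons in plate 3 and by 66.7% to 76.2% in the other plates.

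**Figure D3:**
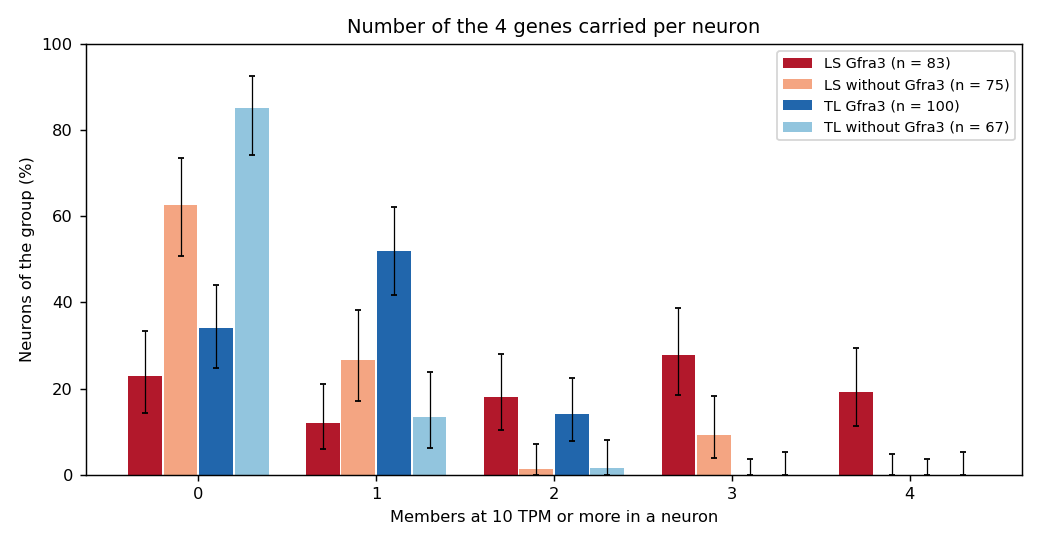
Percent of neurons in each group that carried 0, 1, 2, 3 or 4 of the genes at 10 TPM or more, with Clopper-Pearson 95% intervals as error bars. In LS Gfra3 neurons 27.7% carried 3 and 19.3% carried 4, while no TL neuron carried more than 2.

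In LS Gfra3 neurons the carriers of Ntm and of Abi3bp were nested within the carriers of Dcn, whereas those of Crhr2 were not. All 41 LS Gfra3 neurons with Ntm carried Dcn, and 37 of them carried Crhr2 (90.2%, 76.9% to 97.3%). Among the 42 LS Gfra3 neurons without Ntm, 14 carried Dcn and 22 carried Crhr2. All 18 neurons with Abi3bp carried Dcn, and 17 of them carried Ntm, 17 carried Crhr2 and 16 carried the full set. The combinations seen were none in 19 neurons, Crhr2 alone in 9, Dcn alone in 1, Crhr2 with Dcn in 12, Ntm with Dcn in 3, Ntm with Crhr2 and Dcn in 21, all 4 in 16, and in 1 neuron each the full set without Ntm or without Crhr2. At this threshold no LS Gfra3 neuron carried Ntm or Abi3bp without Dcn, whereas Crhr2 was the gene most often found alone in these neurons. At 1 TPM, Dcn was found in 50 of 54 neurons with Ntm and 36 of 41 with Abi3bp, and with CPM of recovered reads in 46 of 47 and 21 of 22.

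In TL Gfra3 neurons, with 0 carriers of Ntm and 1 of Abi3bp, the pair of Crhr2 and Dcn could be compared. Dcn was carried by 13 of 21 neurons with Crhr2 (61.9%, 38.4% to 81.9%) and by 45 of 79 neurons without it (57.0%), a share within that interval. In LS Gfra3 neurons the same shares were 50 of 59 (84.7%, 73.0% to 92.8%) and 5 of 24 (20.8%).

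**Figure D4:**
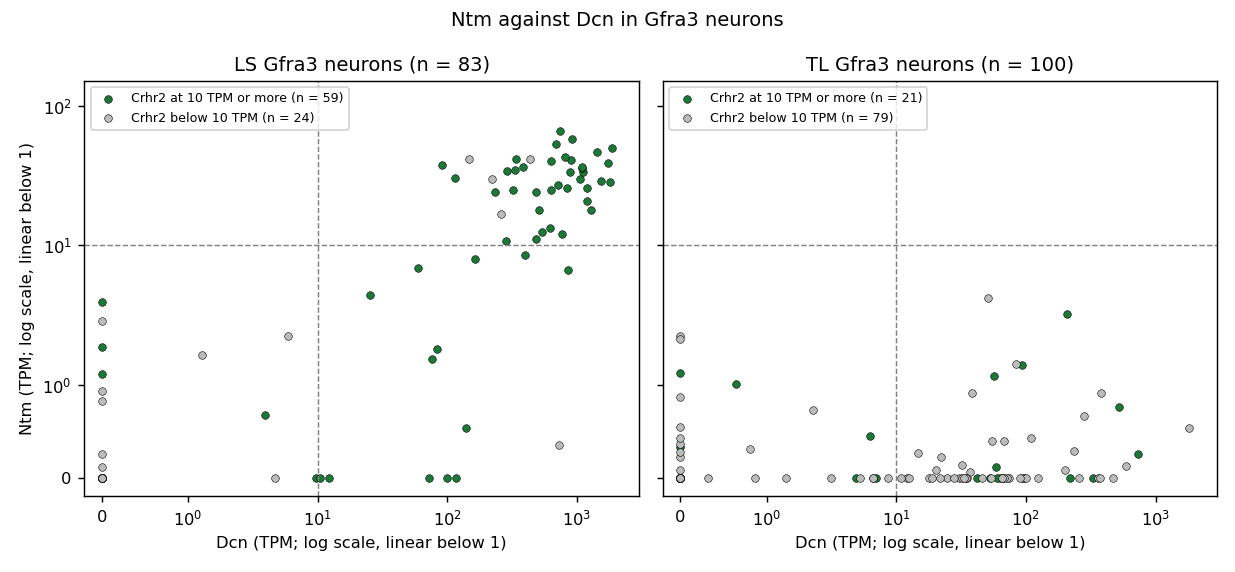
Ntm against Dcn in each LS Gfra3 neuron (left) and TL Gfra3 neuron (right), both in TPM on log axes that are linear below 1, with dashed lines at 10 TPM and neurons that carried Crhr2 in green. In LS the 41 neurons above the Ntm line lie to the right of the Dcn line, and in TL no neuron lies above the Ntm line although 58 lie to the right of the Dcn line.

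Levels were compared in the same way. Over the 83 LS Gfra3 neurons Spearman's rank correlation coefficient was 0.79 between Ntm and Dcn, 0.65 between Crhr2 and Dcn, 0.61 between Dcn and Abi3bp, 0.53 between Ntm and Abi3bp, 0.50 between Ntm and Crhr2 and 0.47 between Crhr2 and Abi3bp. The coefficient with Gfra3 itself ran from -0.17 for Ntm to 0.31 for Crhr2, so the members ranked these LS neurons in another order than the gene that defined the group. These are descriptions over neurons that share plates and a culture, and many neurons were tied at 0. The coefficient with the total of recovered reads ran from -0.11 to 0.11 over the 4 genes. In the 100 TL Gfra3 neurons the coefficient was 0.08 between Ntm and Dcn and 0.29 between Crhr2 and Dcn. With Gfra3 it was 0.46 for Dcn, 0.34 for Crhr2, 0.25 for Abi3bp and 0.04 for Ntm in these TL neurons.

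Median Dcn was higher in neurons that carried more of the genes, among which it is itself counted. Its median was 99.0 TPM in the 15 LS Gfra3 neurons with 2 genes, 537 TPM in the 23 with 3 and 1069 TPM in the 16 with 4. Median Ntm was 1.79, 26.9 and 33.4 TPM, and median Crhr2 was 35.9, 54.8 and 68.5 TPM in the same neurons. Ntm and Crhr2 are also among the genes counted, so these medians are tied to the grouping. Within a neuron Dcn was the highest of the 4 in 39 of the 39 neurons with 3 or 4 genes. Crhr2 was above Ntm in 30 of these and Ntm above Abi3bp in 34.

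A group of 8 LS neurons carried 2 or 3 of the genes without Gfra3. They came from 4 plates and had 0 reads on Gfra3. Ntm ranged from 2.86 to 29.8 TPM in them with a median of 15.8 TPM, Crhr2 from 17.7 to 43.9 TPM with a median of 32.2 TPM, and Dcn from 15.4 to 1169 TPM with a median of 244 TPM. The 8 had a median of 6002361 recovered reads, against 3277968 in LS Gfra3 neurons with 3 or 4 members. Satellite glia markers, described below, summed to medians of 2518 and 276 TPM in these groups. Each of the 8 carried the peptidergic genes Calca, Tac1 and Trpv1, whose medians were 16046, 2302 and 1106 TPM. In the other 67 LS neurons without Gfra3 the medians of Calca, Tac1 and Trpv1 were 9382, 52.0 and 2.65 TPM, and 7 of the 8 peptidergic genes examined below had a median of at least 10 TPM.

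The label peptidergic was checked against 8 genes of such neurons. In the 39 LS Gfra3 neurons with 3 or 4 members the peptide genes Calca and Tac1, the pituitary adenylate cyclase-activating peptide gene Adcyap1 and the heat receptor gene Trpv1 were each carried by all 39. Median Trpv1 was 2037 TPM in them and 1154 TPM in the 29 LS Gfra3 neurons with 0 or 1 member. In TL Gfra3 neurons it was 752 TPM. Mean Calca went the other way, at 18945.5 TPM in the 39 and 27973 TPM in the 29. The sum of the 8 genes had a median of 33685 TPM in the 39, 44235 TPM in the 29 and 36020 TPM in TL Gfra3 neurons. Across the 39 and 29 neurons 4.78% of 7757 genes had a mean at least 2 times higher, and 2.51% a mean at least 2 times lower, in those with more members. Of the 8 peptidergic genes 0 were past the fold upwards. Calcb, which encodes the beta form of calcitonin gene-related peptide, was past it downwards, with means of 1528 and 3103 TPM, and so was the sodium channel gene Scn10a, with means of 93.1 and 187.0 TPM.

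The IgLON family holds Ntm and 4 relatives. Negr1 was carried by 37 of the 41 LS Gfra3 neurons with Ntm (90.2%, 76.9% to 97.3%) and by 4 of the 42 without it (9.52%, 2.66% to 22.6%), with medians of 18.9 and 2.93 TPM. Opcml was carried by 35 of the 41 and 12 of the 42, with medians of 23.5 and 5.58 TPM. Lsamp did not follow Ntm, since it was carried by 38 of the 41 and 41 of the 42, with medians of 28.2 and 23.7 TPM. Iglon5 was carried by none. Negr1 was not tied to Gfra3 neurons of the LS segment alone, as it was also carried by 73.1% of the 67 LS neurons without Gfra3 that had 0 or 1 member, in which Ntm was carried by none. In TL Gfra3 neurons Negr1 was carried by 1%.

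The receptor gene Crhr2 stood without its ligands in these neurons. Of the 59 LS Gfra3 neurons with Crhr2, 0 carried Crh, Ucn2, Ucn3 or Crhbp, which encode corticotropin-releasing factor, 2 urocortins and their binding protein. The exact interval of 0 of 59 reaches 6.06%. Ucn3 was listed at 0 in all of them. Ucn, the first urocortin, was carried by 2 of the 59, with up to 209 TPM, and the other receptor gene Crhr1 by 2, with up to 12.7 TPM. None of the 6 genes had a mean of 10 TPM in LS Gfra3 neurons with 3 or 4 members or with 0 or 1.

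Relatives of Dcn were low. Of 12 other small leucine-rich proteoglycan genes, among them Bgn, Lum, Fmod and Ogn, 0 had a mean of 10 TPM in either group of LS Gfra3 neurons. Bgn, the closest relative of Dcn, was carried by 1 of the 55 LS Gfra3 neurons with Dcn, and Lum by 0. The matrix genes Col1a1, Col1a2 and Col3a1 were carried by 2, 2 and 1 of the 55 and the fibronectin gene Fn1 by 0. Col6a2, a chain of collagen VI, was the exception among 10 matrix genes. It was carried by 32 of the 55 neurons with Dcn (58.2%, 44.1% to 71.3%) and 8 of the 28 without (28.6%, 13.2% to 48.7%), with medians of 12.5 and 4.63 TPM and overlapping intervals.

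Since Dcn is best known from fibroblasts, 10 fibroblast markers were summed in each neuron. In the 55 LS Gfra3 neurons with Dcn the sum ran from 0 to 61.6 TPM with a median of 1.796 TPM, and in the 28 without Dcn from 0 to 7.41 TPM with a median of 0. All 10 markers had a median of 0 in both groups. In the 20 LS Gfra3 neurons with the most Dcn, between 742 and 1866 TPM, the sum had a median of 1.43 TPM and was below 10 TPM in 18. For Abi3bp, the sum ran from 0 to 61.6 TPM with a median of 1.76 TPM in the 18 carriers.

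**Figure D5:**
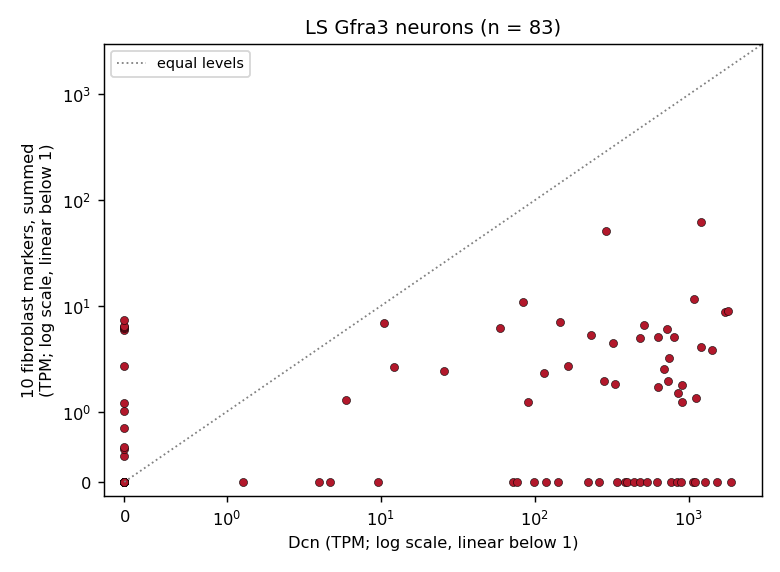
Summed level of 10 fibroblast markers against Dcn in the 83 LS Gfra3 neurons, both in TPM on log axes that are linear below 1. Neurons with Dcn at 742 TPM and above have marker sums of at most 61.6 TPM, far below the dotted line of equal levels.

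Markers of other cells were read in the same way. The 8 satellite glia markers summed to a median of 342 TPM in the 41 LS Gfra3 neurons with Ntm (81.8 to 46221) and 241 TPM in the 42 without (4.70 to 55009), and 4 of the 8 had a median of 0 in both groups. The sum was higher in TL Gfra3 neurons, at 2409 TPM (0 to 92533), than in all LS Gfra3 neurons, at 306 TPM. In neurons without Gfra3 the medians of this sum were nearer, at 1237 TPM in LS and 1403 TPM in TL. With neurons at 1000 TPM or more left out, a choice made after the values had been seen, Ntm was carried by 27 of 58 LS and 0 of 33 TL Gfra3 neurons. Schwann cell markers summed to 106 TPM in neurons with Ntm (0 to 1383) and 998 TPM in those without (0 to 1541), and most of this was Pmp22, while Cldn19, Prx and Egr2 had a median of 0 both with 3 or 4 and with 0 or 1 member. Sums of 6 pericyte and 6 endothelial markers had medians of at most 2.84 TPM in carriers of any of the 4 genes. Among 6 perineurial genes Slc2a1 alone had a median above 10 TPM in LS Gfra3 neurons with 3 or 4 members, and among 8 macrophage genes C1qb alone, with C1qa and C1qc at a median of 0. Pan-neuronal markers summed to 10084 TPM in neurons with Ntm and 13821 TPM in those without, and 8 large-diameter neuron markers to 1256 and 1597 TPM. Among the injury genes Gal was the largest part, with means of 5351 and 4693 TPM in LS Gfra3 neurons with 3 or 4 and with 0 or 1 member. Atf3 had means of 576 and 430 TPM in them. Of the 7 injury genes, 6 had a mean of at least 10 TPM in either group. Of these, 2 were at least 2 times higher with 3 or 4 members, Gadd45a (107 and 52.7 TPM) and Csf1 (15.8 and 3.22 TPM). Sprr1a alone was at least 2 times lower, with means of 0.455 and 50.1 TPM. Over all genes the shares past that fold were 4.78% upwards and 2.51% downwards. Together the injury genes summed to a median of 5754 TPM with Ntm and 5218 TPM without. With Crhr2 the median was 6073 TPM (1032 to 16207) and without it 2598 TPM (92.1 to 22467), and the rank correlation of the sum over the 83 neurons was 0.44 with Crhr2, 0.16 with Dcn, 0.12 with Abi3bp and 0.02 with Ntm. The part of the injury genes in the Crhr2 values was not tested.

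Genes whose levels were most like each member were ranked by Spearman's rank correlation coefficient over the 83 LS Gfra3 neurons, among 10119 genes carried by at least 10% of them. For Ntm the 5 leading genes were Gsta4, which encodes a glutathione transferase that clears lipid peroxidation products (0.80), Dcn (0.79), Negr1 (0.77), the oestrogen receptor gene Esr1 (0.76) and the T-box transcription factor gene Tbx3 (0.75). For Dcn they were Rcn1, a calcium-binding protein of the endoplasmic reticulum (0.79), Ntm (0.79), Gsta4 (0.78), Th, the rate-limiting enzyme of catecholamine synthesis (0.78), and Esr1 (0.78). For Crhr2 they were the glutaminyl cyclase gene Qpct (0.75), the amino acid transporter gene Slc7a8 (0.74), the zinc finger gene Zfp521 (0.73), Th (0.70) and Mical2, which acts on actin (0.70). For Abi3bp they were the contactin gene Cntn4 (0.64), Gm15631 (0.63), Zfp521 (0.61), the zinc transporter gene Tmem163 (0.61) and Dcn (0.61). The rank was not firm, since 13 of the 20 places were kept with Pearson's r and 6 with all LS neurons.

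Some of these genes went beyond the neurons that carried the members. These genes and those lowest in rank were picked by correlation with a member over the LS Gfra3 neurons. Differences among those neurons by number of members follow from that choice and are no separate evidence. Esr1 had a median of 22.5 TPM in LS Gfra3 neurons with 3 or 4 members and 0.388 TPM in those with 0 or 1, but 35.2 TPM in LS neurons without Gfra3 that had 0 or 1 member. Gsta4 (211, 0 and 196 TPM) and Tbx3 (31.1, 0.411 and 26.3 TPM) were likewise low in the second of these groups alone. In TL Gfra3 neurons the medians were 0.0879 TPM for Esr1, 7.47 TPM for Gsta4 and 0 for Tbx3. Zfp521 and Tmem163 had medians of 27.2 and 13.9 TPM in LS Gfra3 neurons with 3 or 4 members, 0 in those with 0 or 1, and 1.78 and 0 TPM in LS neurons without Gfra3 that had 0 or 1 member. In the 8 LS neurons that carried 2 or 3 members without Gfra3, Zfp521 and Tmem163 were each carried by 0, with medians of 2.91 and 0.488 TPM, whereas Esr1, Gsta4 and Tbx3 were each carried by 8. Lowest in rank were Deptor for Ntm (-0.74), Rcan2 for Crhr2 (-0.70), the galanin receptor gene Galr1 for Dcn (-0.77) and Pmp22 for Abi3bp (-0.60). Galr1 was listed at 0 in 39 of the 39 neurons with 3 or 4 members and carried by 62.1% of the 29 with 0 or 1. Median Pmp22 was 52.2 TPM in the first and 1000 TPM in the second.

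A list of 10 further genes from the leading markers of the pelvic peptidergic cluster of the study, which were chosen on these same neurons and so are no independent evidence, was read beside the members. Of the 10, 9 had a mean at least 2 times higher in LS Gfra3 neurons with 3 or 4 members than in those with 0 or 1. Th had medians of 1505 and 149 TPM, with ranges of 257 to 3435 and 0 to 1907 TPM that overlapped. The neuropeptide Y receptor gene Npy1r had medians of 264 and 74.5 TPM, Rcn1 of 101 and 13.3 TPM and the ATP-gated channel gene P2rx2 of 49.4 and 12.1 TPM. Syt10, a synaptotagmin, was the gene short of the fold, with a ratio of means of 1.60. All 10 had a median of at least 10 TPM in the neurons with 3 or 4 members, against 6 in those with 0 or 1 and 3 in TL Gfra3 neurons.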

How the data were processed

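The deposited table held log2 values of 45513 genes in 325 neurons, which the authors made from reads counted per gene. The submitters' notes name bcl2fastq 2.15.0.4, STAR 2.4.1 and featureCounts 1.4.4 with build GRCm38. Back on the linear scale the values summed to between 218865 and 11159067 per neuron, so they were rescaled to 1000000. Whole reads were recovered for depth: 65.0% of values were whole, within a tolerance of 1e-05, with annotated gene lengths, and for 8712 genes the length came from the values. Libraries were not stranded. Labels gave the segment and plate of 203 TL and 196 LS neurons and 13 bath controls, of which 74 neurons and the controls were not analysed here.

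The members and lists were chosen with earlier results of these data known. With 1 sample per segment no test was made. Genes were named by rank of Spearman's rank correlation, 5 per member, and by the fixed lists. A gene of the peptidergic list is not reported here. Scripts used Python 3.11.15, numpy 2.4.6, scipy 1.17.1, pandas 2.3.3 and matplotlib 3.10.9 and were checked on simulated data. Alternatives were other thresholds, scalings, thinning of reads to 500000, a filter on neurons, and leaving out each plate.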

Additional observations from a re-analysis of the deposited data

How the results depend on the processing

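Of 355 alternative values for shares of neurons, 308 stayed within the interval of the share and 47 did not. The LS share exceeded the TL share in 16 of 16 settings for each gene, in all and in Gfra3 neurons, except Dcn in Gfra3 neurons (15 of 16). There a filter at 3 median absolute deviations, which left out 23 LS and 34 TL neurons, gave 63.4% in LS and 64.2% in TL. With Gfra3 thresholds of 5 and 50 TPM and with values not rescaled every share stayed within its interval. Without rescaling Ntm was carried by 42 and Crhr2 by 66 of 158 LS neurons, Dcn and Crhr2 by 56 and 55 of 84 LS Gfra3 neurons, and Dcn was found in 14 of 15 carriers of Abi3bp.

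At 5 TPM Crhr2 was carried by 55.7% of LS, 80.7% of LS Gfra3, 25.1% of TL and 40% of TL Gfra3 neurons, and 31% of TL Gfra3 neurons carried 2 or more genes. At 20 TPM Ntm was carried by 22.2% of LS neurons, Crhr2 by 38.0% of LS, 4.19% of TL and 7% of TL Gfra3 neurons, and Abi3bp by 6.96% of LS, 12.05% of LS Gfra3, 0% of TL and 0% of TL Gfra3 neurons. All 4 were then carried by 10.8% of LS Gfra3 and 2 or more by 3% of TL Gfra3 neurons. At 1 TPM Ntm was carried by 44.9% of LS, 65.1% of LS Gfra3, 10.8% of TL and 9% of TL Gfra3 neurons, Crhr2 by 63.9%, 83.1%, 37.7% and 58%, and Abi3bp by 39.2%, 49.4%, 16.2% and 17%. Dcn was then carried by 53.3% of TL and 68% of TL Gfra3 neurons, 2 or more genes by 77.1% of LS Gfra3 and 54% of TL Gfra3 neurons, and all 4 by 41.0% of LS Gfra3 neurons.

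With CPM of recovered reads Crhr2 was carried by 55.7% of LS, 80.7% of LS Gfra3, 25.1% of TL and 39.8% of TL Gfra3 neurons, Ntm by 2.395% of TL neurons, and 2 or more genes by 29.6% of TL Gfra3 neurons. Thinning left out 4 neurons and gave 3.01% of TL neurons for Ntm, 28.3% of TL and 44.4% of TL Gfra3 neurons for Crhr2, and 33.3% of TL Gfra3 neurons with 2 or more genes. The filter on neurons gave 0% for Abi3bp in TL Gfra3 neurons and 100% for Crhr2 among LS Gfra3 neurons with Ntm. Leaving out each plate in turn gave 0% (without plate 6) to 1.43% (without plate 4) for Abi3bp in TL Gfra3 neurons. Leaving out 67 LS and 108 TL neurons with satellite glia markers at 1000 TPM or more, added after seeing the data, gave Crhr2 in 57.1% of all LS neurons, and in 74.1% of LS Gfra3 and 30.3% of TL Gfra3 neurons. Of the 20 like genes, 13 stayed with Pearson's r and 6 with all LS neurons. Genes higher in LS numbered 53 at a fold of 4 and 1117 at a mean of 1 TPM, and in Gfra3 neurons 41 and 1174. The cause of these moves was not tested. No paired analysis was possible because no result comes from a test and no label pairs neurons across segments. Values within plates, which held both segments, are given with the results.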
